A study of Mus musculus with 7 samples.

Results

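Neutrophils carrying Hashtag 7 were compared with neutrophils carrying Hashtag 6 in a pool of CD11b+ leukocytes from mouse blood and heart. Cells were members when at least 200 genes were detected, at most 10% of their UMIs (unique molecular identifiers, one per captured transcript) were mitochondrial, the top hashtag antibody had at least 10 UMIs and at least 3 times the second, and the Ly6G antibody had at least 5 UMIs. The rule found 451 neutrophils of Hashtag 7 and 722 of Hashtag 6, together 1173 of the 6702 neutrophils of the 7 hashtags and of the 11826 cell barcodes of the pool. The libraries of the whole series held 22630 barcodes.

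The pool came from C57BL6/J mice 8 to 10 weeks old, given a permanent coronary ligation (which causes a myocardial infarct), a sham operation without ligation, or no surgery. It combined mice without surgery (n = 3), sham mice at day 1 (n = 3) and day 3 (n = 3) and infarcted mice at day 1 (n = 5) and day 3 (n = 5), as blood cells or as cells of the ischemic heart, the latter taken from infarcted mice only. Hashtag antibodies label the cells of a source before sources are mixed. No label separates single mice within a hashtag, so each hashtag was 1 set of cells without replicates. Viable CD11b+ cells negative for Ter119, B220 and NK1.1 were sorted, and neutrophils and other cells were brought to about equal numbers, so cell numbers here do not reflect blood or tissue. The labels do not pair Hashtags 1 to 7 with these conditions: the tissue, operation and day of Hashtag 6 and of Hashtag 7 are unmapped, and none is inferred below. Every interval is an exact 95% interval that covers counting error only, no test between the hashtags was possible, and intervals say nothing about differences between mice.

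Neutrophils are short-lived phagocytes that leave the bone marrow with granules already filled with antimicrobial proteins. CD54 (ICAM-1), an integrin ligand on their surface, is induced by inflammatory signals. SiglecF, a sialic acid-binding inhibitory receptor best known from eosinophils and alveolar macrophages, is also found on subsets of neutrophils in inflamed or injured tissue, the infarcted heart among them. Ly6G is a surface protein of mature mouse neutrophils.

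The 250 bases before the RefSeq start (GRCm38.p6) are shown for example genes of each side. Siglecf and Ltc4s were higher in Hashtag 7, and Lcn2 and Wfdc17 were lower there. Capitals mark matches on either strand to TTNNGNAA, a core of the C/EBP motif, and to GAGGAA, a core of the PU.1 motif, which are factors of the neutrophil lineage. Such letters occur in 36.8% and 23.3% of the 32851 windows of this length, so a match is a description of the letters only.

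Siglecf, chr7:43351091-43351340, + strand: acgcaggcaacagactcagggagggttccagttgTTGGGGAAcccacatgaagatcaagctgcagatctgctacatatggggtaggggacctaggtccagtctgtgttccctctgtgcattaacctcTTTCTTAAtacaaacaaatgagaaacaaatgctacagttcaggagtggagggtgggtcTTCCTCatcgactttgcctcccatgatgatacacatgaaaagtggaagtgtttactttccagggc

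Ltc4s, chr11:50238533-50238782, - strand: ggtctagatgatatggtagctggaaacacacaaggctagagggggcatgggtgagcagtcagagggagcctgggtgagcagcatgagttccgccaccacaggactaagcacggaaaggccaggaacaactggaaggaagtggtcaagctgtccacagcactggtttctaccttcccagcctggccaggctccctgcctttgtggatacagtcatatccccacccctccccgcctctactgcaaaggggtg

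Lcn2, chr2:32387740-32387989, - strand: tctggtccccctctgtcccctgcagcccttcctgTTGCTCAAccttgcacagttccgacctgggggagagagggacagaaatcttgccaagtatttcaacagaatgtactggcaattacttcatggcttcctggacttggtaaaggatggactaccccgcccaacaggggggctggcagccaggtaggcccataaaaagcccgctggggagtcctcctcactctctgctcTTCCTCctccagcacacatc

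Wfdc17, chr11:83703806-83704055, + strand: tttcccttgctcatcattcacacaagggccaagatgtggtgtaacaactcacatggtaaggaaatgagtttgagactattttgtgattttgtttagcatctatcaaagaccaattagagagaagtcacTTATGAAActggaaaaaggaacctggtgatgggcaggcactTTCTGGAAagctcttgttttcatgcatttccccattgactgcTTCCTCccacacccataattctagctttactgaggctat

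Siglecf held 2 C/EBP cores and 1 PU.1 core, Lcn2 held 1 of each, Wfdc17 held 2 and 1, and Ltc4s held neither. No window of the 4 held TGANTCA, the AP-1 core, GAANNTTC, the heat shock core, or the letters AGATAA of the GATA motif. Of all windows 6.75%, 6.69% and 9.99% held these. In the annotation of the same build Siglecf is a protein-coding gene at chr7:43351341-43359531, Ltc4s at chr11:50236461-50238616, Lcn2 at chr2:32384633-32388252 and Wfdc17 at chr11:83703991-83706268. The RefSeq start and this annotation differ, so the Lcn2 window lies inside the annotated gene and those of Ltc4s and Wfdc17 overlap theirs in part.

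The members of both hashtags were of like depth. Hashtag 6 had 4017497 UMIs in all and a median of 3578.5 UMIs and 1277 genes per cell, and Hashtag 7 had 2256838 UMIs, a median of 3273 UMIs and 1369 genes. Median Ly6G antibody counts were 20 and 19 UMIs. Just inside the Ly6G limit, 12 and 9 members held 5 UMIs and 17 and 13 held 6, and just outside it 19 and 19 cells held 4. Marker transcripts of neutrophils (12 genes, S100a8 and S100a9 foremost) made up a median of 16.7% of UMIs in Hashtag 6 and 5.37% in Hashtag 7, against 16.0% to 23.9% in Hashtags 1 to 5, and all 12 were detected in both. None of the 1173 barcodes was shared with the CD45+ libraries and 4 were shared with the other CD11b+ pool.

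Some members also held many transcripts of other myeloid cells. At least 20 UMIs of 24 monocyte, macrophage and dendritic cell marker genes were found in 90 members of Hashtag 6 (12.5%) and 55 of Hashtag 7 (12.2%). These marker-rich members were deep (medians of 18861 and 16323 UMIs) and held neutrophil markers too (medians of 518.5 and 158 UMIs, against 15 and 14 in the Ly6G-low cells of the same hashtags), and doublets of a single hashtag were not removed. They gave 43.3% and 43.6% of the UMIs summed. Summed monocyte and macrophage markers were at 3684 CPM (a gene's UMIs scaled to the summed UMIs of the set) in Hashtag 6 and 4794 CPM in Hashtag 7, against 1221 to 2591 CPM in Hashtags 1 to 5. Without marker-rich cells they were at 526 and 450 CPM, against 565 to 704 CPM in Hashtags 1 to 5. Their part in each result was not tested, so results are given for all members and again for the 632 and 396 marker-poor members, those under 20 such UMIs, a limit chosen after the data were seen.

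Markers of other cells were scarce. Of the eosinophil markers Epx, Prg2, Prg3 and Il5ra were at 0 in both sums, and the 6 markers together reached 3.73 CPM in Hashtag 6 and 7.09 CPM in Hashtag 7. Cardiomyocyte markers summed to 11.9 and 7.09 CPM, fibroblast markers to 0.249 CPM and 0, T cell markers to 9.96 and 5.76 CPM, and B cell markers to 66.7 and 71.3 CPM. Platelet markers summed to 483 and 231 CPM, and to 48.7 and 10.2 CPM in marker-poor members.

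SiglecF on the surface differed most between the hashtags among the 14 antibodies. The median SiglecF antibody count was 8 UMIs per cell in Hashtag 6 (quartiles 6 and 12) and 20 UMIs in Hashtag 7 (quartiles 10 and 49). The mean was 10.6 UMIs against 35.7, a ratio of 3.37 (interval 3.28 to 3.47), and 3.46 (3.35 to 3.56) in marker-poor members. In Hashtags 1 to 5 the medians lay at 7 to 8 UMIs, so Hashtag 7 stood above all the other sets and Hashtag 6 did not. In Ly6G-low cells, those of the same hashtags under 5 Ly6G UMIs (272 and 301 cells), the median was 7 UMIs in both and the ratio 1.03 (0.976 to 1.09).

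CD54 was also more abundant in Hashtag 7, with a median of 21 UMIs against 17 in Hashtag 6 and a mean ratio of 1.32 (1.29 to 1.35). Medians of Hashtags 1 to 5 were all 15. The upper quartile was 31 UMIs in Hashtag 7 against 22 in Hashtag 6 and 18 to 20 in Hashtags 1 to 5, and the lower quartile 15 against 12.25, so the hashtags overlapped and differed most at the upper end.

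**Figure D1:**
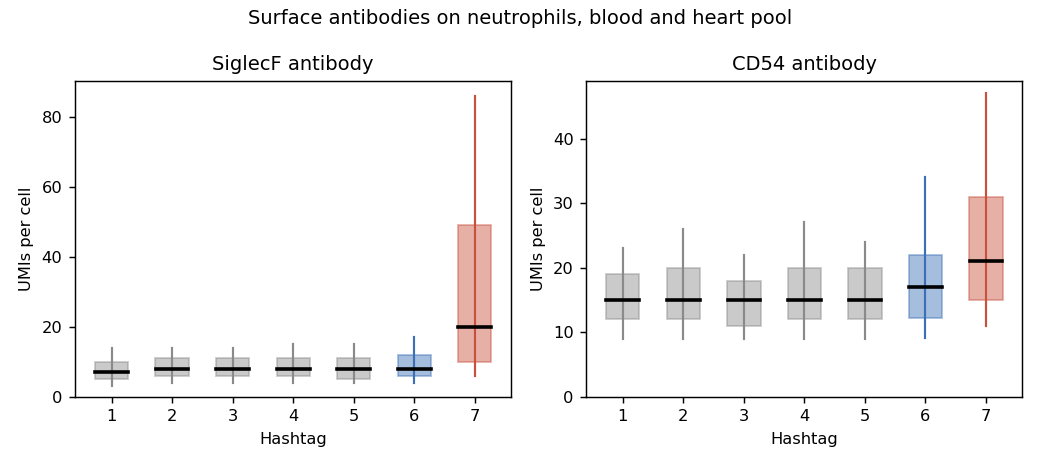
UMIs per cell of the SiglecF antibody (left) and the CD54 antibody (right) in neutrophils of the 7 hashtags. Boxes span the quartiles, black lines mark medians and vertical lines run from the 10th to the 90th percentile of cells. Hashtag 7 (red) reaches a 90th percentile of 86 SiglecF UMIs against 17 in Hashtag 6 (blue), and its upper CD54 quartile is 31 against 22.

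The antibody against FCeRIa, the IgE receptor chain, had a median of 16 UMIs in Hashtag 7 and 20 in Hashtag 6 (mean ratio 0.74, 0.73 to 0.76). Fcer1a itself had 0 UMIs in both sums, and the same antibody had a ratio of 0.60 in Ly6G-low cells. The antibody against MHC class II (IA-IE) had a mean ratio of 0.51 (0.49 to 0.53) with medians of only 3 and 4 UMIs, and 0.83 (0.78 to 0.89) in marker-poor members. A further 9 antibodies (Ly6G, CD11b, Ly6C, CD115, CXCR4, Msr1, CD64, CCR3 and CD49d) had mean ratios between 0.94 and 1.06. CCR3, the eotaxin receptor of eosinophils, had a median of 15 UMIs in each hashtag.

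Surface counts and transcripts of the same gene were set side by side. Siglecf had 80 UMIs (19.9 CPM) in Hashtag 6 and 215 UMIs (95.3 CPM) in Hashtag 7, a log2 ratio of 2.26 (1.88 to 2.65), and marker-poor members gave 2.36 (1.94 to 2.80). Hashtags 1 to 5 lay between 14.3 and 19.8 CPM. Icam1, which encodes CD54, was at 37.8 and 62.5 CPM (log2 ratio 0.72, 0.38 to 1.06). Transcript and antibody lay on the same side for both genes. Cxcr4, which encodes the receptor that returns ageing neutrophils to the marrow, was at 179 and 344 CPM (log2 ratio 0.94, 0.79 to 1.09). The CXCR4 antibody ratio was 0.94 (0.91 to 0.97), with medians of 12 and 11 UMIs and 11 in Hashtags 1 to 5. In Ly6G-low cells its medians were 9 and 8 UMIs, with a ratio of 0.91. This antibody hardly separated the sets, so it cannot show whether surface CXCR4 follows the transcript. Ly6g was at 104 and 40.8 CPM (log2 ratio -1.35, -1.69 to -1.02), with an antibody ratio of 0.94 in cells that the antibody itself had selected.

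Over all genes, 7534 had at least 50 UMIs in the 2 sums together. Of these 295 (3.92%) were at least 2-fold higher in Hashtag 7 and 132 (1.75%) at least 2-fold lower. The median gene had a log2 ratio of 0.25, that is, most genes took a slightly larger share in Hashtag 7. With totals that leave out the 20 highest genes the median was 0.15. S100a8 and S100a9 took a smaller share in Hashtag 7, and their part in the shift was not tested. S100a9 was 6.28% of all UMIs in Hashtag 6 and 3.04% in Hashtag 7, and S100a8 was 5.15% and 2.67%. Scaling factors that centre on the bulk of genes turned the split, to 110 higher and 222 lower (TMM) or 106 and 226 (DESeq2 size factors). Marker-poor members gave 918 of 5416 genes higher (16.9%) and 134 lower (2.47%), around a median of 0.38. Centred on that median gene, they gave 415 higher and 336 lower. Of the 295 genes, 113 were also higher in marker-poor members (38.3% of the 295, 12.3% of the 918). Of the 132 lower genes 81 were shared (61.4% of the 132, 60.4% of the 134). In both directions, genes under 50 UMIs in the marker-poor sums, such as Sdc3, counted as not shared. How many there were is not given, so the part not shared mixes untested genes with genes under 2-fold.

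Among the genes higher in Hashtag 7 were enzymes of leukotriene and prostaglandin synthesis. Ltc4s, the synthase that makes leukotriene C4, had 56 UMIs (13.9 CPM) in Hashtag 6 and 335 UMIs (148 CPM) in Hashtag 7, a log2 ratio of 3.41 (3.00 to 3.85). Marker-poor members held 9 and 72 of these UMIs, so most of them lay in marker-rich members. The marker-poor sums were at 3.95 and 56.5 CPM (log2 ratio 3.84, 2.84 to 5.03), and Hashtags 1 to 5 had 0.87 to 16.4 CPM. Ptgs1, cyclooxygenase 1, was at 26.9 and 106 CPM (log2 ratio 1.98, 1.65 to 2.33), and at 7.11 to 11.2 CPM in Hashtags 1 to 5. Hashtag 7 was the highest of the 7 sets for both enzymes. Of 10 eicosanoid genes tested these 2 were at least 2-fold higher and none was lower, with a list median of 0.40. Over all genes tested 3.92% were at least 2-fold higher and 1.75% lower, around a median of 0.25. The lowest members were Pla2g7 (log2 ratio -0.27), which inactivates platelet-activating factor, and Alox5ap (-0.15), the partner of 5-lipoxygenase.

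The other genes named by size on the higher side were of several kinds. Ptpn22, a tyrosine phosphatase of immune receptor signalling, was at 28.1 and 105 CPM (log2 ratio 1.90, 1.57 to 2.24). Klhl6, a ubiquitin ligase adaptor of haematopoietic cells, was at 45.1 and 137 CPM (1.61, 1.34 to 1.88), and Gngt2, a G protein gamma subunit, at 296 and 688 CPM (1.22, 1.11 to 1.33). Csf1, the macrophage growth factor, was at 95.8 and 211 CPM (1.14, 0.94 to 1.34), and Hist1h4i, a core histone, at 57.7 and 145 CPM (1.33, 1.08 to 1.58). With TMM factors Gngt2 (0.97), Csf1 (0.90), Dnaja1 (0.88) and St13 (0.94) were under 2-fold. Hashtag 7 was the highest of the 7 sets for all 12 genes named on this side. Marker-poor members are a part of the members whose sums named these genes, so the 2 readings are not independent. In marker-poor members 16.9% of all genes tested were at least 2-fold higher. Of the 12, 11 lay on the same side in marker-poor members and 10 of those at least 2-fold. The exceptions were Sdc3, a heparan sulfate proteoglycan, with 43.6 and 131 CPM in all members (1.59, 1.31 to 1.86) but 3.51 and 0.785 CPM in marker-poor ones (-2.16, -7.63 to 0.74), and Saa3, an acute phase protein, with 143 and 422 CPM (1.56, 1.41 to 1.72) but 16.7 and 22.8 CPM (0.45, -0.30 to 1.19).

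Transcripts of some granule proteins were lower in Hashtag 7. Lcn2, the iron-siderophore-binding protein of specific granules, was at 2065.5 CPM in Hashtag 6 and 548 CPM in Hashtag 7 (log2 ratio -1.91, -2.001 to -1.828), with 1549.5 to 2670.4 CPM in Hashtags 1 to 5. Cd177, a surface protein of neutrophil granules, was at 139 and 52.7 CPM (-1.40, -1.70 to -1.11), and Ngp, a neutrophil granule protein, at 51.3 and 7.09 CPM (-2.85, -3.69 to -2.12). Marker-poor members gave -2.06, -2.47 and -2.72. Of 5 specific granule genes tested these 3 were at least 2-fold lower and none higher (list median -1.40), while Olfm4 was at -0.40 (-1.08 to 0.25) and Chil3 at 0.02. Among 11 genes of gelatinase granules and secretory vesicles, 2 were at least 2-fold lower, Mmp25 (19.7 and 6.20 CPM, -1.66) and the collagenase Mmp8 (378 and 185 CPM, -1.03), with a median of -0.54. Gelatinase Mmp9 (0.01) and the integrin chain Itgam (-0.18) were the highest of that list. Over all genes tested 1.75% were at least 2-fold lower. Of 6 azurophil granule genes only Prtn3 was tested, at 23.6 and 48.3 CPM (1.03, 0.62 to 1.44), and at 12.7 and 7.07 CPM in marker-poor members.

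Wfdc17 and Wfdc21, whey acidic protein-type protease inhibitors, were among the most abundant genes with lower values. Wfdc17 had 6753.5 CPM in Hashtag 6 and 2282 CPM in Hashtag 7 (log2 ratio -1.57, -1.61 to -1.52), and 1868 to 8012 CPM in Hashtags 1 to 5, so Hashtag 7 lay within the range of those sets. Wfdc21 had 1656 and 509 CPM (-1.70, -1.79 to -1.61) against 1375 to 2346 CPM. Adam19, a membrane metalloproteinase, was at 146 and 43.0 CPM (-1.77, -2.09 to -1.45), and Rflnb, a refilin that binds filamin, at 146 and 49.6 CPM (-1.56, -1.86 to -1.26). Retnlg, a resistin-like protein of neutrophils, was at 7794 and 3417 CPM. Hashtag 7 was the lowest of the 7 sets for 6 of the 12 genes named on the lower side.

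For some of these genes the sum of Hashtag 6 stood apart. Ccl24, an eosinophil-attracting chemokine, had 1118 UMIs (278 CPM) in Hashtag 6 and 118 UMIs (52.3 CPM) in Hashtag 7 (log2 ratio -2.41, -2.70 to -2.14), and 0.17 to 2.84 CPM in Hashtags 1 to 5. Marker-poor members had 102 and 1.57 CPM (-6.02, -9.07 to -4.15). Cxcl3, a neutrophil-attracting chemokine, was at 436 and 166 CPM (-1.40, -1.56 to -1.23), at 516 and 41.6 CPM in marker-poor members (-3.63, -4.06 to -3.24) and at 1.28 to 6.79 CPM in Hashtags 1 to 5. Arg1, which breaks down arginine, was at 867 and 330 CPM (-1.40, -1.51 to -1.28), at 72.4 and 4.71 CPM in marker-poor members (-3.94, -5.41 to -2.79) and at 1.74 to 8.77 CPM in Hashtags 1 to 5. Arg1 was under 2-fold in members under 2 marker UMIs (-0.59) and without the 5% deepest cells (-0.79). For these 3 genes the order was Hashtag 6, then Hashtag 7, then the other sets, when all members were summed. At full depth Ccl24 was found in 3.74% and 2.88% of members, Arg1 in 6.23% and 5.99% and Cxcl3 in 13.3% and 4.21%. The Ccl24 and Arg1 sums thus rest on a small share of members with many UMIs each, which the counting intervals do not cover. Fabp5, a fatty acid-binding protein, was at 511 and 131 CPM (-1.96, -2.14 to -1.79), with 181 to 276 CPM in Hashtags 1 to 5.

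**Figure D2:**
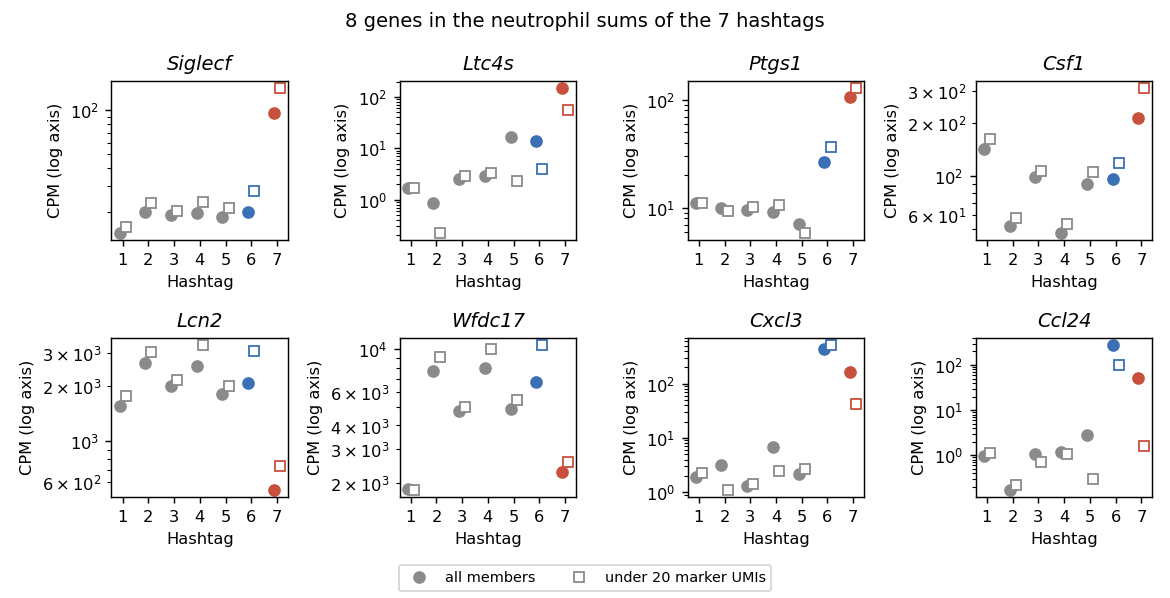
CPM, on a log axis, of 8 genes in the neutrophil sums of Hashtags 1 to 7. Filled circles are all members and open squares members under 20 monocyte or dendritic marker UMIs, with Hashtag 6 in blue and Hashtag 7 in red. Siglecf, Ltc4s, Ptgs1 and Csf1 are highest in Hashtag 7, Lcn2 is lowest there, and Cxcl3 and Ccl24 are highest in Hashtag 6.

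Antigen presentation genes depended on which members were summed. Cd74, the invariant chain of MHC class II, was at 2193 CPM in Hashtag 6 and 809 CPM in Hashtag 7 (log2 ratio -1.44, -1.51 to -1.37), but at 66.3 and 106 CPM in marker-poor members (0.68, 0.33 to 1.02). H2-DMb1, a peptide-loading chain, was at 147 and 47.9 CPM (-1.62, -1.93 to -1.32), but at 3.07 and 3.14 CPM in marker-poor members (0.03, -2.19 to 2.01). All 7 MHC class II genes tested were at least 2-fold lower in Hashtag 7, and none of the 3 tested in marker-poor members was. Over all genes tested the shares at least 2-fold lower were 1.75% in all members and 2.47% in marker-poor members. Dendritic cell markers, which include 3 of these genes, summed to 2378 and 790 CPM, and to 52.2 and 54.2 CPM in marker-poor members.

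**Figure D3:**
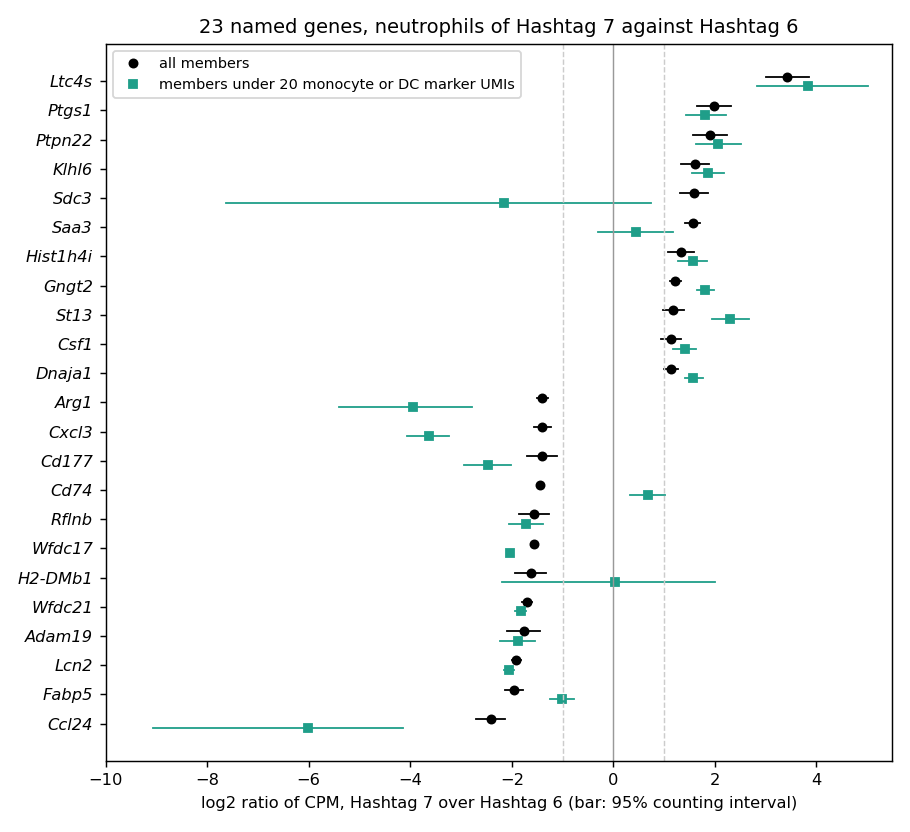
Log2 ratio of CPM, Hashtag 7 over Hashtag 6, of 23 of the 24 genes named by size, with exact 95% counting intervals. Black circles are all members and green squares members under 20 monocyte or dendritic marker UMIs, and dashed lines mark 2-fold. The 2 values lie on opposite sides of 0 for Sdc3, Cd74 and H2-DMb1, and marker-poor values are lower for Ccl24 (-6.02), Arg1 (-3.94) and Cxcl3 (-3.63).

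The same size rule in marker-poor members, applied after the data were seen, named partly different genes. On the higher side were Cacybp (14.0 and 105 CPM, log2 ratio 2.91), Hsp90ab1 (81.6 and 518 CPM, 2.66), Mat2a (21.5 and 134 CPM, 2.63) and Nop10 (21.5 and 125 CPM, 2.54), which act in protein turnover, protein folding, methionine metabolism and ribosomal RNA processing. Fubp1, Polr2f, Snrpg, Siglecf, St13, Ccng1 and Hint1 followed, with log2 ratios between 2.15 and 2.40. On the lower side were Ccl24, Cxcl3, Osm (133 and 19.6 CPM, -2.76), an interleukin-6 family cytokine, Cd177, Lcn2, Wfdc17, Fcgr2b (104 and 26.7 CPM, -1.96), the inhibitory Fc receptor, Ifitm6 (-1.91), Adam19, Wfdc21, Rflnb and Mgst1 (-1.71). In all members, of which marker-poor members are a part, 6 of the 12 higher and 11 of the 12 lower genes also reached 2-fold. Of all genes tested there 3.92% were at least 2-fold higher and 1.75% lower.

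Chaperones had the highest median of the lists with at least 5 genes tested. Of 12 heat shock genes tested 3 were at least 2-fold higher in Hashtag 7, against 3.92% of all genes, and none was lower. Their median was 0.68, against 0.25 over all genes. Hspa1b, an inducible Hsp70, was at 5.72 and 19.9 CPM (1.80, 1.04 to 2.59), Hsph1, an Hsp110, at 13.7 and 33.2 CPM (1.28, 0.76 to 1.81), and Dnaja1, an Hsp40 co-chaperone, at 199 and 435 CPM (1.13, 0.99 to 1.27). St13, which joins Hsp70 and Hsp90, was at 82.6 and 188 CPM (1.18, 0.97 to 1.40). The lowest members, Dnajb1 (0.03) and the endoplasmic reticulum chaperone Hspa5 (0.23), were not below 0. In marker-poor members 6 of 9 were at least 2-fold higher, against 16.9% of all genes (median 1.58, against 0.38 over all genes).

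Ribosomal protein genes lay near the median gene in all members and above it in marker-poor members. None of 82 ribosomal protein genes reached 2-fold in all members (median 0.20), and 32 did in marker-poor members (median 0.87), where their sum was 34598 CPM in Hashtag 6 and 57845 CPM in Hashtag 7. Of 13 core histone genes 4 were at least 2-fold higher (median 0.56), and 6 of 11 in marker-poor members (median 1.17). Over all genes tested 3.92% were at least 2-fold higher in all members. In marker-poor members 16.9% were, around a median of 0.38. Mitochondrially encoded genes had medians of 0.17 and -0.06. Medians between 0 and 0.25 in all members are under that of all genes, and change side when the sums are centred on it. Genes of amino acid supply and the Atf4 stress response had a median of 0.51 (0 of 13 at least 2-fold higher, 1 lower), with the isoleucyl-tRNA synthetase Iars (0.67, -0.04 to 1.38) and the glutathione-degrading Chac1 (0.67, 0.03 to 1.30) highest and Slc7a5 (-1.40, -2.55 to -0.40) and Sesn2 (-0.41) lowest.

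Of 26 genes of the lysosome and lipid list 1 was at least 2-fold higher and 1, Fabp5, lower (median 0.17), against 3.92% and 1.75% of all genes. The lipase Lpl was next highest (0.91, 0.57 to 1.24) and had 0 and 2 UMIs in marker-poor members. Anxa1 (-0.42) was next lowest.

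Among cytokines 1 of 12 genes tested was at least 2-fold higher (Csf1) and 2 were lower (median -0.48), against 3.92% and 1.75% of all genes. Osm was at 99.1 CPM in Hashtag 6 and 19.1 CPM in Hashtag 7 (log2 ratio -2.38, -2.87 to -1.92), and at 20.5 to 45.1 CPM in Hashtags 1 to 5. Hbegf, a growth factor of the EGF family, was at 21.9 and 4.43 CPM (-2.31, -3.42 to -1.36). Tnf was at 26.9 and 43.0 CPM (0.68, 0.27 to 1.09) and Il1b at 2804 and 1943 CPM (-0.53, -0.58 to -0.48). Of 10 chemokines none was higher and 1, Cxcl3, was at least 2-fold lower (median -0.09; the list does not hold Ccl24), with Ccl6 next (2622 and 1667 CPM, -0.65) and Ccl7 (0.55) and Ccl3 (0.47) highest. In marker-poor members 4 of 8 were at least 2-fold lower (median -0.95), against 2.47% of all genes. Cxcl10, an interferon-induced chemokine, was higher there, at 3.07 and 99.0 CPM (5.01, 3.92 to 6.35). In all members it was not among the 2 highest of the list, Ccl7 and Ccl3, so its ratio depended on which members were summed. The share of members holding Cxcl10 is not given, and the counting interval does not cover a sum that rests on few cells.

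Of 18 cytokine receptors the TGF-beta receptor Tgfbr1 was higher (70.9 and 147 CPM, 1.05, 0.82 to 1.29) and the interleukin-1 receptor partner Il1rap lower (252 and 122 CPM, -1.04, -1.24 to -0.85), with Tnfrsf1b (0.34) and Csf2rb (-0.55) next and a median of -0.04. Of 13 chemoattractant receptors none reached 2-fold (median -0.08), with Cxcr4 and the complement receptor C3ar1 (0.90) highest and the leukotriene B4 receptor Ltb4r1 (287 and 155 CPM, -0.89) and the formyl peptide receptor Fpr2 (-0.58) lowest. C3ar1 was at 3.95 and 2.36 CPM in marker-poor members. Of 11 Siglec and inhibitory receptors tested Siglecf was higher and Lilr4b lower (456 and 217 CPM, -1.07, -1.22 to -0.93), with the ligand Cd274 (0.45) and Lilrb4a (-0.95) next and a median of -0.42. Of 15 Fc and pattern receptors Fcgr2b was lower (344 and 160 CPM, -1.11) and none higher (median -0.14), with Ly96 (0.38) and Clec4e (0.35) highest and Tlr2 (-0.63) next lowest. None of 13 adhesion genes reached 2-fold (median -0.18), with Itgax (0.74) and Icam1 highest and Selplg (-0.47), a ligand of selectins, among the lowest. Beside these receptor and adhesion lists, 3.92% of all genes tested were at least 2-fold higher and 1.75% lower.

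Of 27 glycolysis and hypoxia genes 1 was at least 2-fold lower, the oxygen sensor Egln3 (110 and 50.5 CPM, -1.12, -1.43 to -0.82), and none higher (median -0.34). The glucose transporter Slc2a3 (-0.99) was next lowest and Ankrd37 (0.29) and Ndrg1 (0.17) were highest. Of 30 interferon-stimulated genes Ifitm1 was lower (4920 and 2352 CPM, -1.06, -1.11 to -1.02) and none higher (median -0.31), with Gbp2 (-0.99) next and Cmpk2 (0.74) and Ifit3 (0.47) highest. In marker-poor members that median was -0.02. Of 20 heme, iron and antioxidant genes catalase (Cat, 11.4 and 29.7 CPM, 1.37, 0.81 to 1.95) was higher and none lower (median 0.32), with Gclc (0.96) next and Slc40a1 (-0.63) and Gsr (-0.38) lowest. Of 19 survival and apoptosis genes Pmaip1, which encodes Noxa, was higher (40.6 and 86.0 CPM, 1.08, 0.78 to 1.39) and none lower (median -0.07), with Bcl2l11 (0.78) next and Bcl2l1 (-0.47) and Fas (-0.36) lowest. All genes tested, read alike, had 3.92% at least 2-fold higher and 1.75% lower.

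Of 7 S100 genes S100a9 was at least 2-fold lower (-1.05, -1.06 to -1.03) and S100a8 was at -0.95 (median -0.15), with S100a13 (0.20) and S100a10 (0.19) highest. In the stefin A cluster, whose copies are alike enough that reads may be split between them, Stfa2 was at 11.2 and 35.4 CPM (1.66, 1.12 to 2.22), BC100530 at 0.69, Gm5483 at -0.79 and Stfa1 at -0.53 (1 of 6 higher, none lower, median 0.02). No gene of 3 further lists reached 2-fold. Among 18 immediate early genes (median -0.13) the range ran from Ier3 (-0.90) and Klf2 (-0.42) to Egr1 (0.62) and Fosb (0.95). Among 17 myeloid transcription factors (median -0.01) it ran from Xbp1 (-0.61) and Irf8 (-0.36) to Cebpa (0.77) near the top, and among 15 NF-kB genes (median 0.09) from Traf1 (-0.39) and Nfkbia (-0.22) to Nfkbid (0.64) and Rel (0.69). The 7 genes of the NADPH oxidase, which makes superoxide, had a median of 0.04 with none at 2-fold, from Rac2 (-0.23) to Cybb (0.31) and Ncf1 (0.43). Shares over all genes tested were 3.92% at least 2-fold higher and 1.75% lower.

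**Figure D4:**
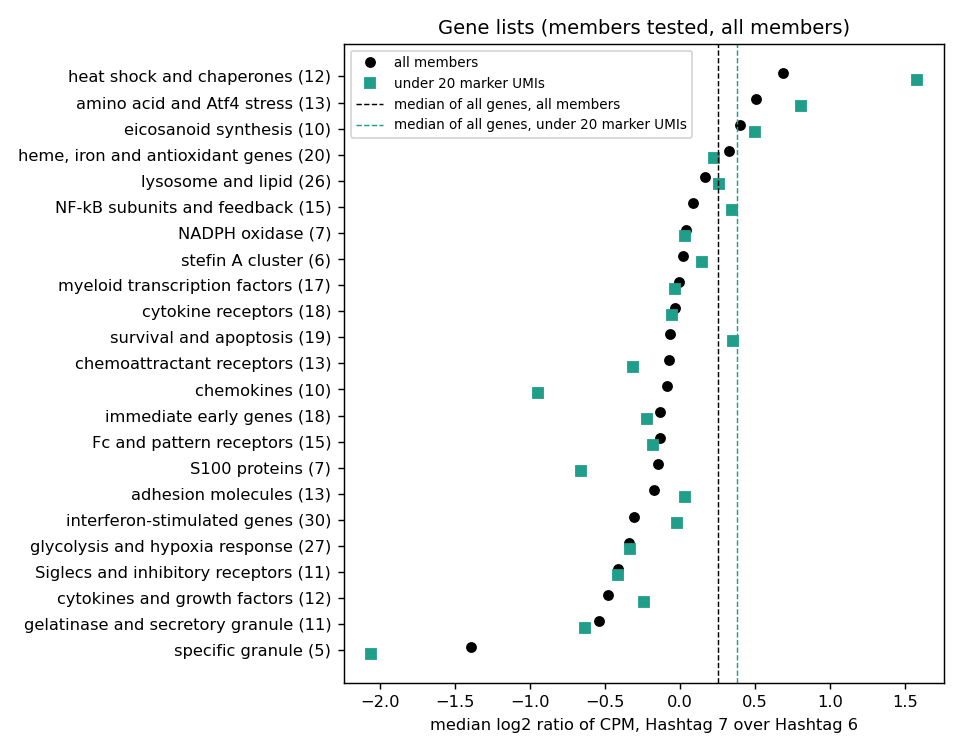
Median log2 ratio of CPM, Hashtag 7 over Hashtag 6, of each gene list with at least 5 genes tested (the number tested in all members is in brackets). Black circles are all members, green squares members under 20 marker UMIs, and dashed lines the median of all genes in each (0.25 and 0.38). Of the lists plotted, heat shock genes lie highest (0.68 and 1.58) and specific granule genes lowest (-1.40 and -2.06). MHC class II, histone, ribosomal and mitochondrial genes are not plotted.

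Within Hashtag 7 the SiglecF antibody counts spread over a wide range, and cells were divided at 18 UMIs, the 95th percentile of Hashtags 1 to 5. Above it lay 238 of 451 members of Hashtag 7 (52.8%, 48.0 to 57.5) and 62 of 722 of Hashtag 6 (8.59%, 6.65 to 10.9), against 3.36% to 5.41% in Hashtags 1 to 5. In marker-poor members the shares were 51.3% (203 of 396) and 6.80% (43 of 632), and in Ly6G-low cells 3.99% and 2.21%. The limit cuts a continuous range: 27 marker-poor cells of Hashtag 7 lay within 5 UMIs above it and 26 within 5 UMIs below. The SiglecF-high range and its genes were chosen after the data were seen and are described without a test.

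In marker-poor members of Hashtag 7 the SiglecF-high cells had a median CD54 count of 24 UMIs against 16 in the rest. Median depth was 3086 and 3144 UMIs, with 1452 and 1248 genes, and the median count of the other antibodies was 242 and 261 UMIs. The median Ly6G antibody count was 22 and 16 UMIs, and neutrophil markers made up a median of 4.11% and 9.80% of UMIs. Over the 396 cells SiglecF and CD54 counts had a Spearman rho of 0.50, against 0.15 over the 632 cells of Hashtag 6, as descriptions of cells that share a library. SiglecF counts had a rho of 0.33 with Ly6G in Hashtag 7 and 0.16 in Hashtag 6, and of 0.09 and 0.12 with CXCR4.

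The genes that differed between the hashtags were read over these ranges as well. Siglecf was at 36.3 CPM in the rest and 247 CPM in SiglecF-high cells of Hashtag 7 (log2 ratio 2.76, 2.13 to 3.46), Ltc4s at 9.48 and 103 CPM (3.44, 2.24 to 4.94) and Ptgs1 at 39.5 and 215 CPM (2.45, 1.83 to 3.12). Between the remaining cells of Hashtag 7 and those of Hashtag 6 their log2 ratios were 0.63 (-0.15 to 1.37), 1.17 (-0.60 to 2.82) and 0.23 (-0.49 to 0.90), each interval spanning 0. Icam1 (2.81 within Hashtag 7 and -0.57, -1.71 to 0.43, between the remaining cells) also had an interval spanning 0 between the remaining cells. The Ltc4s ratio there rests on 9 and 6 UMIs. Other genes higher in Hashtag 7 were above 0 in both comparisons: Csf1 was at 0.77 (0.47 to 1.07) within Hashtag 7 and 1.15 (0.84 to 1.46) between the remaining cells, Gngt2 at 1.62 and 0.81 (0.57 to 1.06), Dnaja1 at 0.86 and 1.08 (0.85 to 1.31), and Cacybp at 1.48 and 1.98 (1.23 to 2.73). Of the 12 genes named higher in all members, 12 were higher in SiglecF-high cells, 9 were higher between the remaining cells and 4 of them at least 2-fold. The 12 include Sdc3 (0 and 1 UMIs) and Saa3 (8 and 21 UMIs), and the 4 include Ltc4s, all under 50 UMIs there. The 12 genes were named from sums that hold these same cells, so the counts are not independent of that choice. The median of all genes tested was itself above 0, at 0.32 in SiglecF-high cells and 0.16 between the remaining cells. Retnlg was at -2.73 and -0.41. Cd177 was at 0.38 (-0.54 to 1.32, on 19 and 25 UMIs) and -2.67 (-3.42 to -2.01), and Cxcl3 at -0.98 (-1.88 to -0.12) and -3.18 (-3.71 to -2.70). Lcn2 (-2.11 and -1.40) and Wfdc17 (-1.90 and -1.41) were lower in both. Over all genes tested, 623 of 3654 (17%) were at least 2-fold higher and 185 (5.06%) lower in SiglecF-high cells. Between the remaining cells of the hashtags 140 of 4542 (3.08%) were higher and 133 (2.93%) lower.

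**Figure D5:**
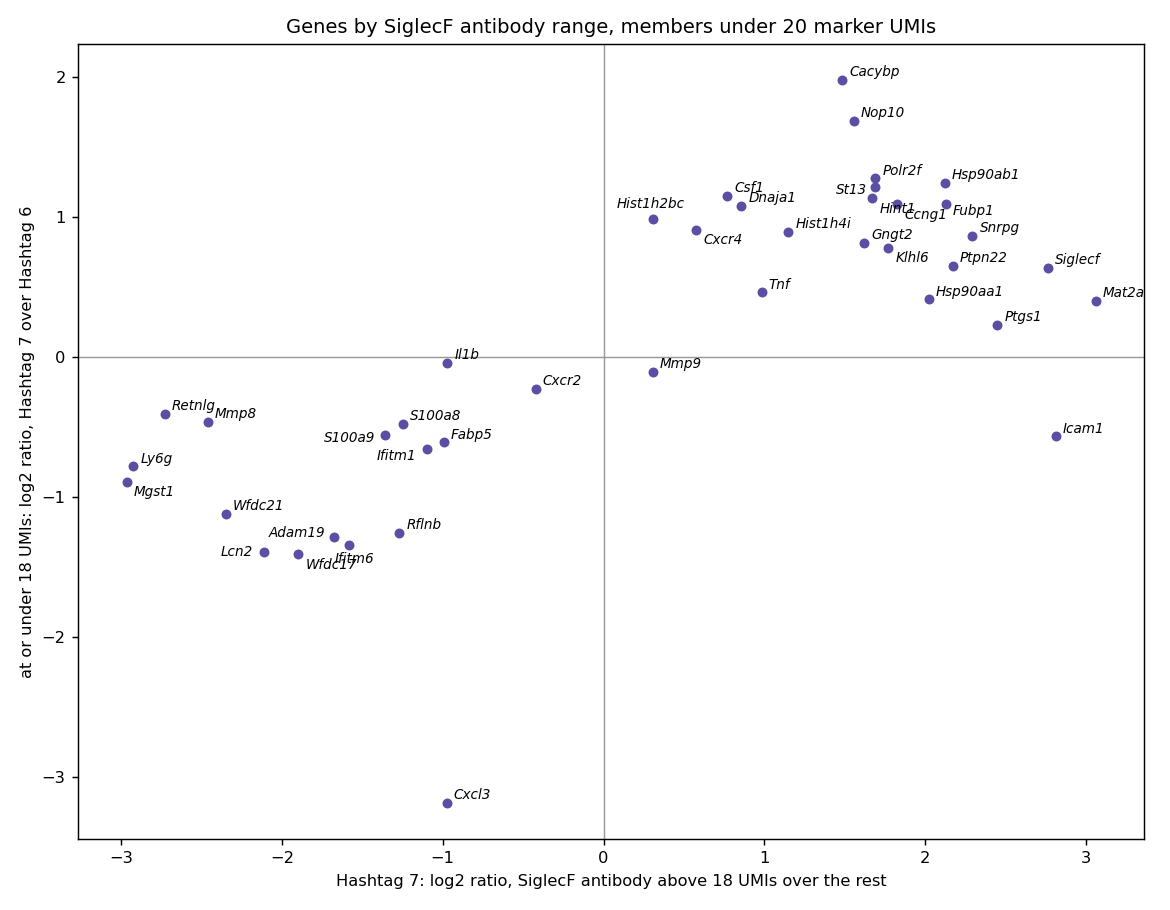
Log2 ratios of CPM in members under 20 marker UMIs. The horizontal axis compares SiglecF-high cells (above 18 antibody UMIs) with the rest of Hashtag 7, and the vertical axis compares cells at or under 18 UMIs of Hashtag 7 with those of Hashtag 6. Of the 41 genes plotted, each with at least 50 UMIs in both comparisons, 22 lie above 0 and 17 below 0 on both axes, with Cxcl3 at -3.18 on the vertical axis and Siglecf at 2.76 on the horizontal one. The genes were chosen after the values of these same cells were seen, so the counts are descriptions only.

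Shares of cells with a UMI were compared after thinning each cell to 1000 UMIs, which left 720 members of Hashtag 6 and 443 of Hashtag 7 (2 and 8 were shallower). Siglecf was found in 2.36% (1.38 to 3.75) and 11.5% (8.69 to 14.9) of them, and unthinned in 8.45% and 29.3%. Ly6G-low cells, thinned alike from medians of 14232 and 14723 UMIs, had 1.12% and 0.671%. Of them 90.4% and 92.7% held at least 20 marker UMIs, so they are a comparison with other cells, not a measure of stray transcripts. Ltc4s was found in 0.417% (0.086 to 1.21) and 5.42% (3.50 to 7.95) and Lcn2 in 67.9% (64.4 to 71.3) and 25.7% (21.7 to 30.1). In Ly6G-low cells Ltc4s was found in 0% and 1.68%, and Lcn2 in 17.2% and 8.72%. Cxcl3 was found in 7.92% (6.05 to 10.1) and 2.03% (0.933 to 3.82) of members, and in 2.24% and 2.35% of Ly6G-low cells, so its share in Hashtag 7 was not above theirs.

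The Ly6G-low cells of the 2 hashtags held 8828 and 8640 CPM of monocyte and macrophage markers, and 90.4% and 92.7% of them held at least 20 marker UMIs. Of 8281 genes tested 59 (0.712%) were at least 2-fold higher in Hashtag 7 and 62 (0.749%) lower, around a median of -0.02. Of the 12 genes named higher in neutrophils 8 lay on the same side there and 1, Ltc4s (2.18 and 27.0 CPM, 3.63), reached 2-fold. Of the 12 named lower 11 lay on the same side and 3 reached 2-fold: Ccl24 (-2.52), Lcn2 (-2.33) and Wfdc21 (-1.17).

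The same genes were read in the other CD11b+ pool, of hearts only, in which the labels give the day of each hashtag: day 1 (5 infarcted mice pooled) and day 3 (5 mice pooled). Nearly every cell there passed 5 Ly6G UMIs, so cells under 20 marker UMIs were used (270 on day 1 and 1031 on day 3). Of 6268 genes tested 1508 (24.1%) were at least 2-fold higher on day 3 and 295 (4.71%) lower, around a median log2 ratio of 0.50. Siglecf was at 21.8 CPM on day 1 and 208 CPM on day 3 (log2 ratio 3.25), Ltc4s at 7.56 and 71.0 CPM (3.23), Lcn2 at 2236 and 273 CPM (-3.03), Cd177 at 235 and 11.8 CPM (-4.32) and Cxcl3 at 7725 and 725 CPM (-3.41). Of the 12 genes named higher in Hashtag 7, 10 were higher on day 3 and 6 of them at least 2-fold. Of the 12 named lower, 11 were lower on day 3 and 8 at least 2-fold. Sdc3 (-0.99) and Saa3 (-0.51) were lower on day 3 and Cd74 was at 0.005. Under 2-fold on the higher side were Csf1 (842 and 1105 CPM, 0.39), Klhl6 (0.52), Dnaja1 (0.66) and, by a hair, St13 (0.9998). On the lower side Ccl24 (7.56 and 4.56 CPM), Fabp5 (-0.59) and H2-DMb1 (-0.37) were. Ccl24 (9 and 19 UMIs, -0.73, -1.94 to 0.60) and H2-DMb1 (7 and 19 UMIs, -1.68 to 1.13) were under 50 UMIs there, with intervals spanning 0. The pools differ in handling, antibodies and depth, the values stand side by side, and they assign no day or tissue to Hashtag 6 or Hashtag 7.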

How the data were processed

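Each barcode of the blood and heart pool had whole UMI counts of genes, 14 surface antibodies and 7 hashtags in 1 matrix. The deposited counts are raw and were made with Cell Ranger 3.0.2, per the file headers, on build mm10, per the submitters' processing notes. Other steps of the authors' counting are not given in the sources used here.

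Cells were selected by the stated limits, without clustering. No doublet caller was run: the rule that the top hashtag exceed the second by 3 times removes mixtures of hashtags, not mixtures within 1. Counts were summed over cells, divided by the summed total, and compared as ratios with exact conditional 95% intervals, which cover counting error only (python 3.11.15, numpy 2.4.6, scipy 1.17.1, pandas 2.3.3). Genes with at least 50 UMIs in both sums together are called tested and were compared for a 2-fold difference, with no p-value. These steps were checked on simulated data. TMM factors of edgeR 4.0.16 and size factors of DESeq2 1.42.0 (R 4.3.3) gave other scalings only.

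Named genes are the 12 highest and 12 lowest log2 ratios of the 1137 genes with at least 50 UMIs in both sums together, at least 100 CPM in the higher sum, an interval leaving out 0, and, in the higher hashtag, a CPM at which 5 times the neutrophil value reaches that of the Ly6G-low cells. Genes of ribosomal proteins, haemoglobins and the mitochondrial genome, those named Gm or Rik, and markers of other cells were left out of these 24. The 2 highest and 2 lowest of each list were added, and Retnlg, Il1b and Cxcl10 were singled out after their values were seen. Members and lists were chosen with earlier results of these data known. Alternatives tried were other Ly6G, hashtag, mitochondrial and count limits, other scalings and the leaving out of the deepest cells. Leaving out marker-rich cells, and the division at 18 SiglecF UMIs, were chosen after the data were seen. Promoter sequences were copied from RefSeq's table for GRCm38.p6. It held fewer than 80% of the named genes, so a count of motifs over them would be void and none is given. Some items are not reported here, though they are part of the counts.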

Additional observations from a re-analysis of the deposited data

How the results depend on the processing

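No paired analysis was possible because each side was 1 hashtag set, with no replicate to pair or to leave out. The number of genes at least 2-fold higher in Hashtag 7 (295) was 110 with TMM factors, 106 with DESeq2 size factors, 186 with totals that leave out the 20 highest genes and 1212 when each cell counted the same. It was 87 at a Ly6G limit of 50 UMIs, 596 when the top hashtag was at least 10 times the second, 2117 with no minimum of UMIs, 60 with a minimum of 200 and 616 without the 5% deepest cells. With members under 2 marker UMIs it was 614, and under 20 it was 918, or 415 when centred on the median gene. The number at least 2-fold lower (132) was 222 with TMM factors, 226 with DESeq2 size factors, 1900 with no minimum of UMIs, 59 with a minimum of 200, and 336 in members under 20 marker UMIs when centred on the median gene. Neutrophil numbers were 379 (Hashtag 6) and 218 (Hashtag 7) at a Ly6G limit of 20 UMIs, 37 and 25 at 50, and 311 and 235 under 2 marker UMIs.

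Of the 24 named genes 20 kept their direction under every alternative run, but 6 stayed past 2-fold under all of them, and 14 when the Ly6G limit of 50 UMIs is left aside (11 did at that limit). Arg1 was at -0.59 under 2 marker UMIs, -0.74 with the stricter hashtag limit and -0.79 without the deepest cells. Sdc3 was at -1.01 under 2 marker UMIs, -2.16 under 20 and -2.54 when also centred. H2-DMb1 was at 0.58 under 2 and 0.032 under 20, Cd74 at 0.51, 0.68 and, centred, 0.30, and Wfdc17 at 0.24 with Ly6G at least 50 UMIs, where 37 and 25 cells remain. The number of antibodies past 1.5-fold (2) was 4 at that limit and 1 without the 5% deepest cells, under 2 or 20 marker UMIs, or by medians. The CD11b ratio was 1.01 at a Ly6G limit of 20 UMIs, 1.06 at 50 and 1.02 with the stricter hashtag limit. The Ly6C ratio was 1.05 at 20 UMIs, 1.02 with the stricter hashtag limit and 1.01 both without the deepest cells and under 20 marker UMIs. CD115 was at 0.968 with at most 5% mitochondrial UMIs, 0.955 under 2 marker UMIs and 0.887 under 20, and CD49d at 0.828 with Ly6G at least 50 UMIs. The causes were not tested. A median cell held 3578.5 or 3273 UMIs, so genes under 50 UMIs in the sums were left out of the counts of genes.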
